A study of Mus musculus with 7 samples.

Results

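Gene expression in tissue of Iqgap1 knockout mice was compared between days 6 and 0 of a study with topical 4OHT, 4-hydroxytamoxifen, across 19937 genes on Affymetrix Mouse Gene 1.0 ST arrays. The comparison used 4 of the 7 arrays of the series, those whose titles name the knockout genotype: 2 at day 0 and 2 at day 6. The 3 wild-type arrays, 1 at day 0 and 2 at day 6, are given as context, since they also helped to estimate the spread of each gene. Mice of both genotypes were on a mixed C57BL/6 and 129 background, and every sample, the day 0 samples included, is labelled with the agent topical 4OHT. The labels call the material mouse tissue, give no age or sex, and name no transgene on which 4OHT would act. They number the replicates without saying that they came from separate mice, so the p-values reflect the spread among these arrays alone, and that spread may be technical. Values are log2 expression values, and n = 2 knockout arrays at each day throughout.

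IQGAP1 is a scaffold protein that holds kinases of the Ras-ERK pathway together with the actin cytoskeleton and calmodulin. 4-Hydroxytamoxifen is the active form of tamoxifen and is used on skin to switch on proteins fused to a modified oestrogen receptor. The epidermis is a layered epithelium in which basal keratinocytes divide, and their daughters move outward, change keratins and build a cornified envelope of cross-linked small proteins. When the epidermis is injured or its barrier is broken, it thickens, divides faster, and makes a known set of proteins seen little in resting skin, among them small proline-rich proteins, keratins 6 and 16, S100 alarmins and beta-defensins. Below the epidermis lie the dermis with its fibroblasts and collagen, hair follicles that cycle between growth and rest, a layer of fat and a thin sheet of skeletal muscle.

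Array medians lay between 5.61 and 5.79 over the 7 arrays, and the values of the 2 knockout replicates correlated at 0.991 for day 0 and 0.988 for day 6 over all genes, which are not independent replicates. The keratinocyte markers were high on all 4 knockout arrays: Krt5 read 12.62 and 12.63 at day 0 and 12.79 and 12.70 at day 6, and Krt14 read 12.24 and 12.41 at day 0 and 12.80 and 12.89 at day 6. Fibroblast, fat and muscle genes were high as well at day 0, as given below. Detection calls were not used here. As a guide to the level of a gene that is off, Xist on the arrays without its signal and Y-linked genes on the arrays with Xist signal read between 3.50 and 4.25; all 4 knockout arrays had Y-linked and no Xist signal, while the wild-type day 0 array and wild-type day 6 replicate 1 had Xist signal. In 148 of the genes that changed in the knockout, the lower group reached that level, and the fold change there is what the arrays recorded, with low values compressed.

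The targeted gene kept a signal on the knockout arrays. Iqgap1 read 9.02 and 8.99 at day 0 and 8.58 and 8.67 at day 6 in the knockout, against 9.94 on the wild-type day 0 array and 10.11 and 10.59 on the wild-type day 6 arrays. Every knockout array lay below every wild-type array, and the knockout's own day change of -0.38 ± 0.20 (log2 fold change ± SE) did not pass the test (adjusted p = 0.268, limma). Which part of the gene is deleted was not given in the sources used here, so this probe set does not settle how much transcript remains. Of its relatives, Iqgap2 fell by 1.36 on the log2 scale, from 8.64 and 8.50 to 6.81 and 7.60 (adjusted p = 0.0274). That call was lost without day 0 replicate 1, day 0 replicate 2 or day 6 replicate 1. Iqgap3, a member made by dividing cells, read 5.36 and 5.83 at day 0 and 6.70 and 7.85 at day 6, a change of 1.68 ± 0.48 that did not pass (adjusted p = 0.0583).

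By limma with Benjamini-Hochberg adjustment over all 19937 genes, 3251 genes (16.3%) changed between day 0 and day 6 in the knockout: 1443 (7.24%) rose and 1808 (9.07%) fell. At least 2-fold changes were called for 917 genes that rose (4.6%) and 1352 that fell (6.78%). The count depended on every knockout array: it was 1421 without day 0 replicate 1, 1935 without day 0 replicate 2, 1381 without day 6 replicate 1 and 2180 without day 6 replicate 2. No called gene changed direction under these omissions or under the other settings fitted to 1 value per gene. That outcome was largely fixed beforehand and is no support for the calls. Most of the other settings leave the fold change itself as it was. An omission cannot turn the sign where the arrays of the days do not overlap. Of 153 called genes with further probe sets, 23 had a further one whose log2 change had the opposite sign. Among the listed genes this was so for Top2a alone, named after its values were seen: the mitosis gene's other probe set gave -0.087 against the 2.66 used. The median change over all genes was 0.095, with an interquartile range from -0.20 to 0.31, so list medians below are read against 0.095 and counts against 7.24% that rose and 9.07% that fell. List medians were also fragile: 30 of 52 moved by over 1.5 times or changed sign in at least 1 omission of a knockout array, and the 6 that changed sign had medians near 0. Small counts were fragile too: of 40 cases in which a list had 1 to 3 members called in a direction, 25 had none left in at least 1 omission of a knockout array. Where a list below has no member called in a direction, limma also found none there at an unadjusted p under 0.05 for small proline-rich proteins, surface proteases, cholesterol synthesis, mitosis, DNA replication and interferon-stimulated genes; it found 1 for neutrophil, complement, adipocyte and muscle genes, and 2 for late cornified envelope genes and neutrophil chemokines.

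The 20 largest rises were nearly all genes of the outermost epidermis or of its defence. They comprised 7 members of the Sprr2 cluster, a pseudogene among them, 3 Lce3 genes, 3 stefins (Stfa2, Stfa3 and Csta3), 3 beta-defensins, the membrane protease gene Tmprss11b, the kallikrein Klk13, the gap junction gene Gjb6 and the cytokine gene Tslp. Tmprss11b, the gene of a serine protease anchored at the surface of squamous epithelial cells, led them and read 3.94 and 4.05 at day 0 and 11.21 and 10.73 at day 6, a change of 6.97 ± 0.20 (adjusted p = 4.27e-05). Its day 0 arrays lay at the level of absent genes and both day 6 arrays were far above them. The 20 largest falls were of other tissues for the most part. They include Lep, which encodes the fat hormone leptin, Adipoq of fat cells, and the muscle genes Mylk4, Pvalb, Mstn, Hjv, Ampd1, Klhl40, Xirp1, Fsd2 and Casq1. Epidermal genes were among the falls too. These were Krt77, a keratin of the eccrine duct and resting epidermis that fell furthest of all, the serpin gene Serpina3b and Skint10. Leaving out any 1 knockout array kept 39 of these 40 calls; Scd3, a lipid desaturase gene of the sebaceous gland, did not pass without day 6 replicate 1.

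**Figure D1:**
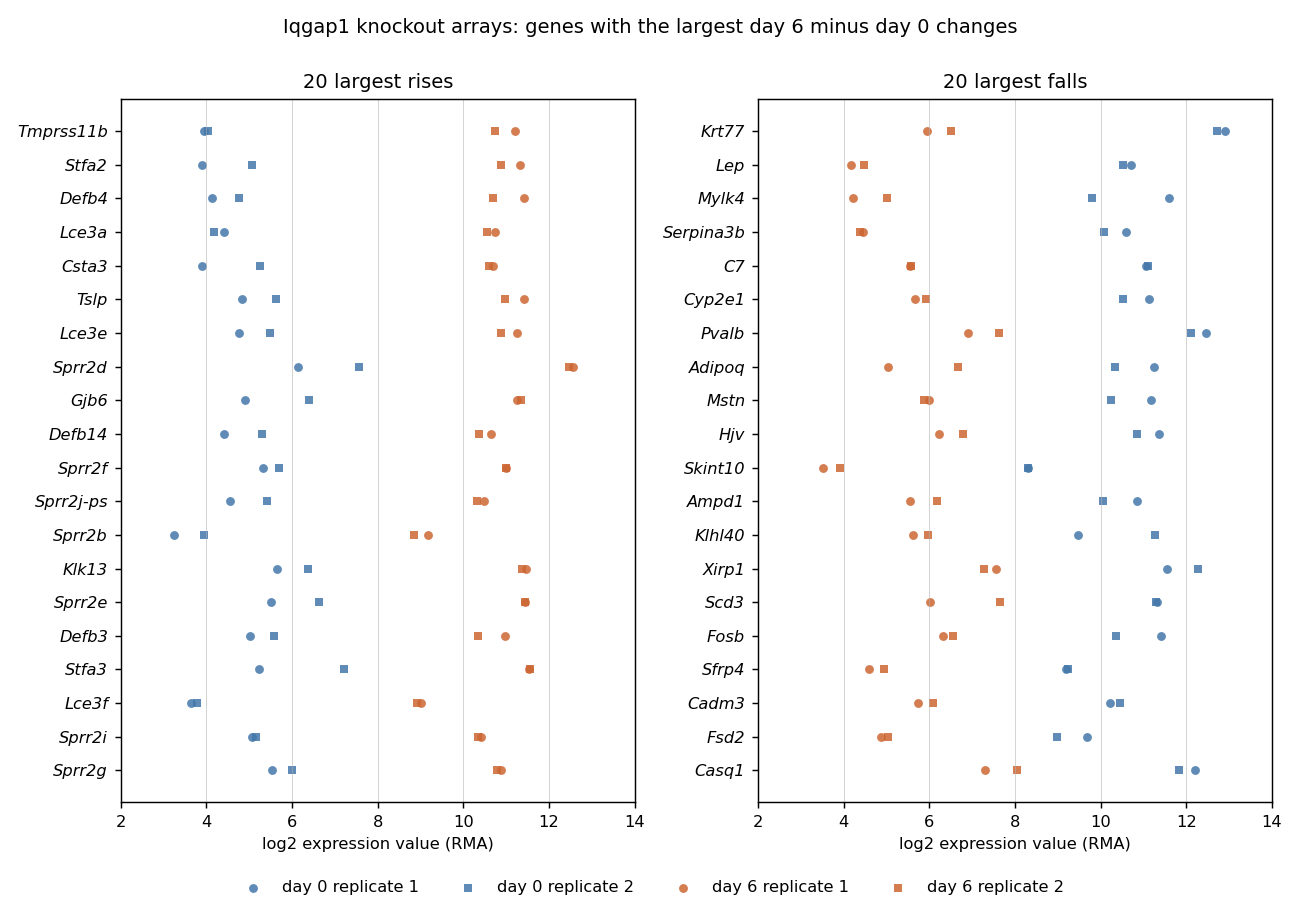
Log2 expression values (RMA) of the 20 genes with the largest rises (left) and the 20 with the largest falls (right) on the 4 knockout arrays; blue, day 0, orange, day 6, circles, replicate 1, squares, replicate 2. In each gene both day 6 arrays lie on the same side of both day 0 arrays, as the choice of genes required, and the distance is largest for Tmprss11b (6.97) and Krt77 (-6.58).

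The small proline-rich proteins are cross-linked into the cornified envelope and are made in quantity by stressed epidermis. Of 14 measured genes of this family with involucrin, 11 rose and none fell, with a median change of 4.62. Sprr2d read 6.15 and 7.55 at day 0 and 12.55 and 12.46 at day 6, a rise of 5.66 ± 0.41 or 50.5-fold (adjusted p = 0.000538). Sprr2f read 5.33 and 5.70 at day 0 and 11.0003 and 10.99 at day 6, a rise of 5.48 ± 0.18 (adjusted p = 5.73e-05), and Sprr2i read 5.07 and 5.16 at day 0 and 10.40 and 10.33 at day 6, a rise of 5.25 ± 0.17 (adjusted p = 5.73e-05). In these genes the 2 day 6 arrays were nearly equal, and day 0 replicate 2 was the higher of the day 0 pair. Sprr2 copies are near-identical in sequence and can share probes, so the split of signal among them is uncertain. With 1 knockout array left out, between 9 (without day 0 replicate 1) and 10 genes of the list were called.

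Most promoters of the Sprr and involucrin list share a motif that those of the late cornified envelope genes lack in the windows searched. The AP-1 factors, which act in stressed and differentiating keratinocytes, bind TGANTCA. Searched on both strands in the RefSeq windows from 250 bases before to 50 bases after a gene's start (build GRCm38.p6), it was found in 10 of 12 Sprr and involucrin promoters (83.3%), against 2565 of 32851 promoters in all (7.81%). None of 18 late cornified envelope promoters held it. The windows of Sprr2d (chr3:92338890-92339189, plus strand), Sprr2e (chr3:92351893-92352192, plus strand), Sprr2f (chr3:92364937-92365236, plus strand) and Lce3a (chr3:92926181-92926480, minus strand) are printed 5′ to 3′ because these genes rose together with and without the motif; capitals mark the AP-1 letters.
Sprr2d: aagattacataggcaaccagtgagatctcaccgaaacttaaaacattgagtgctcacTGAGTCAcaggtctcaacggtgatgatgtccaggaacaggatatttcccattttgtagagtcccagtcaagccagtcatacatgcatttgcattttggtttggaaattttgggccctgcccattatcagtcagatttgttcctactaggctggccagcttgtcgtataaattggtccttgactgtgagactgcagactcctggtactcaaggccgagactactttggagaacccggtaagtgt
Sprr2e: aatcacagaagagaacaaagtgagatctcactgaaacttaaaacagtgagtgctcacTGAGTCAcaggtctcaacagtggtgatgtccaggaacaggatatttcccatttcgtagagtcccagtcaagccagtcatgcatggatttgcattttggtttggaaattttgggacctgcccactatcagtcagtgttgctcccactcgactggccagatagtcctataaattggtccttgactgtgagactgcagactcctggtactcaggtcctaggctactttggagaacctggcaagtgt
Sprr2f: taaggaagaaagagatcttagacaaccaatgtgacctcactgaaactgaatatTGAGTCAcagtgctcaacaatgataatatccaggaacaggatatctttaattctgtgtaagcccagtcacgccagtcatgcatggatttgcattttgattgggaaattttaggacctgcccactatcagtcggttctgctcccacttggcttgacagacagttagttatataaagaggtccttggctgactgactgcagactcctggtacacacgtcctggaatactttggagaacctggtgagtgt
Lce3a: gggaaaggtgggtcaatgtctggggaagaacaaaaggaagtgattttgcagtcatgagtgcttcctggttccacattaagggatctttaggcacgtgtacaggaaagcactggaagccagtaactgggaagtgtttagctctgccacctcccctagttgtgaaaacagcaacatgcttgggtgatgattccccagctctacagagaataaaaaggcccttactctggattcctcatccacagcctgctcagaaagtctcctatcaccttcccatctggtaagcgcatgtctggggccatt
Counted from the gene's start, the match begins at -193 in Sprr2d and Sprr2e and at -197 in Sprr2f. The printed Sprr2 windows are alike over much of their length, so promoters of such copies are not independent of each other in the count. A match describes the letters and is neither a shown binding site nor a cause, and its absence from the Lce3a window says only that these letters are not in it.

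The late cornified envelope genes lie in the same gene cluster and encode further envelope proteins; the Lce3 group is known for its induction in damaged skin, whereas Lce1 genes belong to normal cornification. Of 19 measured genes 9 rose and none fell, with a median change of 1.04. The Lce3 members led: Lce3a read 4.41 and 4.17 at day 0 and 10.73 and 10.56 at day 6, a change of 6.35 ± 0.18 (adjusted p = 4.27e-05), and Lce3e read 4.75 and 5.48 at day 0 and 11.26 and 10.88 at day 6, a change of 5.95 ± 0.28 (adjusted p = 0.000177). Lce3a reached down to the level of absent genes at day 0, as did Lce3f and Lce3b, which read 9.01 and 8.91 and 7.60 and 8.06 on the day 6 arrays. Of 13 Lce1 genes 4 passed, with rises of 1.09 to 1.99 against 3.77 to 6.35 for the 5 Lce3 genes; Lce1g read 5.07 and 4.96 at day 0 and 6.48 and 6.47 at day 6, a rise of 1.46 ± 0.16 (adjusted p = 0.00207). Without day 0 replicate 1 or day 6 replicate 1, 7 of the list's members were called, and without day 0 replicate 1 the median was 0.63.

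Genes of the granular layer, where keratinocytes fill with the proteins that bundle keratin, moved in both directions: 9 of 22 rose and 1 fell, with a median of 0.72. Tgm3, a transglutaminase that cross-links the envelope, read 6.11 and 6.59 at day 0 and 10.60 and 11.30 at day 6, a rise of 4.60 ± 0.43 or 24.3-fold (adjusted p = 0.00114). Rptn, which encodes the filaggrin-type protein repetin, rose by 2.93 ± 0.27, and Casp14, a protease that processes filaggrin, rose by 2.25 ± 0.23 (adjusted p = 0.00107 and 0.0016). Their day 6 arrays all lay above their day 0 arrays. Flg2, which encodes filaggrin 2, went the other way and read 10.77 and 10.40 at day 0 and 6.20 and 6.84 at day 6, a change of -4.07 ± 0.69 (adjusted p = 0.00981). The Flg2 call was lost without day 6 replicate 1. Lor, the main envelope protein gene of normal epidermis, read 12.09 and 12.41 at day 0 and 10.63 and 11.62 at day 6, a change of -1.12 ± 0.34 that did not pass (adjusted p = 0.0734).

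Most surface protease genes rose. Of 21 membrane serine proteases and kallikreins, enzymes that cut the bonds between shedding corneocytes and trim surface proteins, 14 rose and none fell, with a median of 1.70; between 11 (without day 6 replicate 1 or day 6 replicate 2) and 13 were called with 1 knockout array left out. Klk13 read 5.64 and 6.37 at day 0 and 11.45 and 11.37 at day 6, a rise of 5.41 ± 0.25 or 42.5-fold (adjusted p = 0.000177). Tmprss11e read 7.29 and 7.22 at day 0 and 10.96 and 10.97 at day 6, a rise of 3.71 ± 0.15 (adjusted p = 0.000102). In both genes the 2 day 6 arrays lay close together and the days did not overlap, which the choice of genes by size or p made likely. Klk12 rose by 2.97, Klk14 by 3.61 and Tmprss11g by 5.07.

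Genes of protease inhibitors moved in both directions. Of 20 stefins and epidermal serpins, 7 rose and 4 fell, with a median of 0.33, which was 0.10 without day 6 replicate 1 and 0.57 without day 6 replicate 2. Stfa2, which encodes a stefin that inhibits cysteine proteases, read 3.90 and 5.07 at day 0 and 11.31 and 10.88 at day 6, a change of 6.61 ± 0.37 (adjusted p = 0.000351). Csta3 read 3.90 and 5.26 at day 0 and 10.69 and 10.59 at day 6, a change of 6.06 ± 0.40 (adjusted p = 0.000483); in both, day 0 replicate 1 lay at the level of absent genes and replicate 2 above it. Stfa3 rose by 5.32 and Csta1 by 3.14. In the other direction, Serpina3b read 10.59 and 10.07 at day 0 and 4.44 and 4.38 at day 6, a change of -5.92 ± 0.24 or 60.5-fold downward (adjusted p = 0.000125). Serpina12, which encodes vaspin, fell by 3.44 and Serpinb7 fell by 3.73. Mouse stefin A genes are close copies and can share probes, so their split is uncertain.

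Antimicrobial and alarmin genes rose more often than they fell. Of 22, 10 rose and 1 fell, with a median of 0.98. Defb4, a beta-defensin gene, read 4.14 and 4.75 at day 0 and 11.40 and 10.69 at day 6, a change of 6.60 ± 0.54 (adjusted p = 0.000774). Defb14 read 4.42 and 5.30 at day 0 and 10.64 and 10.37 at day 6, a rise of 5.64 ± 0.30 (adjusted p = 0.000308), and Defb3 rose by 5.35. S100a8, which encodes a subunit of the alarmin calprotectin, read 6.71 and 7.99 at day 0 and 11.51 and 11.50 at day 6, a rise of 4.16 ± 0.39 or 17.8-fold (adjusted p = 0.00113), and its partner S100a9 rose by 3.92. In S100a8 the day 6 arrays were nearly equal, while day 0 replicate 2 lay above replicate 1. Slpi, an antimicrobial protease inhibitor gene, rose by 4.44, and S100a7a, the mouse counterpart of psoriasin, rose by 4.10. Neutrophils also make S100a8 and S100a9, and neutrophil-restricted genes are given below.

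Keratins of the main epidermal layers did not pass the test, while 2 others named here fell. Among 17 epidermal keratins 1 rose and 3 fell, with a median of 0.12. Krt5 and Krt14 of the basal layer and Krt1 and Krt10 of the spinous layer did not pass the test: their changes were 0.12, 0.52, -0.04 and -0.23, all from high day 0 values. Krt77 read 12.90 and 12.72 at day 0 and 5.95 and 6.50 at day 6, a change of -6.58 ± 0.25 or 96-fold downward (adjusted p = 0.000101), and Krt15, a keratin of basal and follicle stem cells, read 11.33 and 11.23 at day 0 and 7.13 and 8.26 at day 6, a change of -3.58 ± 0.39 (adjusted p = 0.00196). Krt18, a keratin of simple epithelia, rose by 1.90. In whole tissue, fewer cells of a type and less RNA per cell cannot be told apart, here and in the results that follow.

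The stress keratins set the day 0 replicates apart. Krt6b read 7.54 and 11.40 at day 0 and 12.70 and 12.68 at day 6, so that day 0 replicate 2 was far above replicate 1 and nearer to the day 6 arrays. Its change of 3.23 ± 1.06 did not pass (adjusted p = 0.09). Krt16 read 9.59 and 11.53 at day 0 and 12.74 and 12.90 at day 6, a rise of 2.26 ± 0.55 (adjusted p = 0.0344), and Krt6a rose by 1.06 from 11.24 and 11.64. The Krt16 call was lost without day 6 replicate 1 or day 6 replicate 2, and the Krt6a call without day 0 replicate 1 or day 6 replicate 1. Krt17 read 11.96 and 12.01 at day 0 and 12.08 and 12.46 at day 6 and did not pass. Over the 4 genes the mean level was 10.1 on day 0 replicate 1, 11.6 on day 0 replicate 2, 12.5 on day 6 replicate 1 and 12.6 on day 6 replicate 2.

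Cell junction genes rose more often than they fell (7 and 1 of 25, median 0.39). Gjb6, which encodes connexin 30, read 4.90 and 6.40 at day 0 and 11.25 and 11.34 at day 6, a rise of 5.65 ± 0.43 or 50.1-fold (adjusted p = 0.000635), and Gjb2, which encodes connexin 26, read 8.12 and 9.88 at day 0 and 12.63 and 12.62 at day 6, a rise of 3.62 ± 0.50 (adjusted p = 0.00445). Both connexins are known to be scarce between hair follicles in resting skin and to appear in thickened epidermis. The desmosomal genes Dsc2 and Dsg1b rose by 3.08 and 1.51, and the P-cadherin gene Cdh3 rose by 2.19. Genes that anchor basal cells to the basement membrane were mixed (5 rose and 3 fell of 16, median 0.17): the laminin gene Lama3 rose by 1.30, and Dst, which encodes the hemidesmosome plakin, fell by 1.87. Without day 0 replicate 1, day 6 replicate 1 or day 6 replicate 2, 1 basal adhesion gene was called higher, and with any 1 knockout array left out 1 was called lower.

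Transcription factors and lipid enzymes of differentiating keratinocytes rose more often than they fell, though most did not pass the test. Of 33 keratinocyte transcription factors 11 rose and 1 fell (median 0.41), and without day 0 replicate 1 the number that rose was 5. Elf3, an ETS factor gene of epithelial stress, read 5.79 and 5.59 at day 0 and 8.84 and 8.98 at day 6, a rise of 3.22 ± 0.26 or 9.31-fold (adjusted p = 0.000695). Its relative Ehf rose by 1.58, Prdm1, which encodes Blimp1, by 1.42 and Sox15 by 2.42. Of 30 barrier lipid genes 8 rose and 2 fell (median 0.46, and 0.25 without day 6 replicate 2), with 5 that rose without day 0 replicate 1. Degs2, a desaturase and hydroxylase gene of ceramide synthesis, read 7.07 and 6.97 at day 0 and 11.47 and 11.46 at day 6, a rise of 4.44 ± 0.16 or 21.7-fold (adjusted p = 7.8e-05), with the arrays of each day close together. The ceramide genes Ugcg, Cers3 and Sptlc1 rose by 1.41, 1.57 and 1.33, whereas Alox12e, an epidermal lipoxygenase gene, read 10.74 and 10.62 at day 0 and 5.57 and 7.25 at day 6, a change of -4.27 ± 0.55 (adjusted p = 0.00332).

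Rises of smaller size were found for cholesterol synthesis genes. Of 21, 11 rose and none fell, with a median of 0.85. Nsdhl read 9.26 and 9.28 at day 0 and 10.71 and 10.55 at day 6, a rise of 1.36 ± 0.22 (adjusted p = 0.00754), and Mvk, which encodes mevalonate kinase, rose by 1.48. Both day 6 arrays lay above both day 0 arrays in 19 of the 21 genes, against 42.2% of all genes. The calls rested on single arrays: 1 gene passed without day 0 replicate 1 or without day 6 replicate 1, and at most 5 passed with any other knockout array left out. Nsdhl did not pass without day 6 replicate 1, nor Mvk without day 0 replicate 1.

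Genes of cell division rose almost without exception in the knockout. Of 47 mitosis genes 46 rose and none fell, with a median of 2.45. The exception was Pttg1, chosen for mention after its values were seen, which encodes securin; it read 8.34 and 8.21 at day 0 and 8.75 and 8.25 at day 6 and did not pass. Ccnb2, which encodes cyclin B2, read 7.06 and 7.62 at day 0 and 10.71 and 10.63 at day 6, a rise of 3.33 ± 0.21 or 10.1-fold (adjusted p = 0.000465). Cdk1, the kinase that drives mitosis, read 6.75 and 7.31 at day 0 and 10.44 and 10.15 at day 6, a rise of 3.27 ± 0.24 (adjusted p = 0.000568), and Bub1, a spindle checkpoint kinase gene, read 5.01 and 4.98 at day 0 and 8.55 and 8.71 at day 6, a rise of 3.64 ± 0.27 (adjusted p = 0.000554). In each of them both day 6 arrays stood far above both day 0 arrays. The checkpoint gene Mad2l1 rose by 2.99, the Aurora B gene Aurkb by 3.37 and the cyclin A2 gene Ccna2 by 3.09. Between 36 (without day 6 replicate 1) and 41 mitosis genes were called with 1 knockout array left out.

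DNA replication genes rose in the same number but by less. Of 54, 46 rose and none fell, with a median of 1.34, and both day 6 arrays lay above both day 0 arrays in 53. Tk1, the thymidine kinase gene of S phase, read 5.95 and 6.04 at day 0 and 8.64 and 8.74 at day 6, a rise of 2.70 ± 0.16 or 6.48-fold (adjusted p = 0.000388). Ccne1, which encodes cyclin E1, read 6.26 and 5.81 at day 0 and 9.31 and 8.88 at day 6, a rise of 3.06 ± 0.23 (adjusted p = 0.000568), and Chaf1b, a chromatin assembly factor gene, read 6.32 and 6.88 at day 0 and 8.97 and 8.90 at day 6, a rise of 2.34 ± 0.22 (adjusted p = 0.00126). The ribonucleotide reductase gene Rrm2 rose by 2.58 and the replication factor gene Rfc5 by 1.62. The list's calls were less stable than those for mitosis: between 19 (without day 6 replicate 1) and 28 genes passed with 1 knockout array left out. Cell cycle regulators outside these lists were mixed, with 4 that rose and 3 that fell of 26, of which 1 rose without day 0 replicate 1 and none fell without day 6 replicate 1; Rbl1, which encodes p107, rose by 2.19. The mean level of the mitosis list was 6.00 and 6.19 on the day 0 knockout arrays and 8.43 and 8.59 on the day 6 knockout arrays; it was 7.86 on the wild-type day 0 array.

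Promoters of these lists carry the letters that division genes are known for. NF-Y binds CCAAT, and the cell cycle homology region reads TTTGAA; both were searched on both strands. CCAAT stood in 31 of 40 promoters of mitosis genes (77.5%) against 37.4% of all promoters, TTTGAA in 28 of 40 (70.0%) against 17.9%, and both together in 25 of 40 (62.5%) against 6.95%. Each motif alone was as frequent in lists that did not rise. TTTGAA stood in 8 of 9 hair shaft keratin promoters (88.9%) and CCAAT in 16 of 20 circadian clock promoters (80%). Both together stood in 44.4% and 0% of the promoters of these lists. E2F letters, TTCCCGC or TTTGGCGC, stood in 23 of 53 promoters of DNA replication genes (43.4%) and in none of the 40 mitosis promoters. They stood in 5.06% of all promoters and in 7.02% of those of the genes tested. The windows of Ccnb2 (chr9:70421505-70421804, minus strand), Cdk1 (chr10:69352863-69353162, minus strand) and Chaf1b (chr16:93883651-93883950, plus strand) from RefSeq, build GRCm38.p6, are printed as examples; capitals mark CCAAT and TTTGAA on either strand in Ccnb2 and Cdk1, and the E2F letters in Chaf1b.
Ccnb2: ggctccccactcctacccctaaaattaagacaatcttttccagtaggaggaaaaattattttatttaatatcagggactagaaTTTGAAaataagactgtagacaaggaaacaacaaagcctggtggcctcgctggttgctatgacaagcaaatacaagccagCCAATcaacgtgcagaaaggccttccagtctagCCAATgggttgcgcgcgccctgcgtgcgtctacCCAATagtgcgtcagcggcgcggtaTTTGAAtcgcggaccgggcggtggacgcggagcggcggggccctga
Cdk1: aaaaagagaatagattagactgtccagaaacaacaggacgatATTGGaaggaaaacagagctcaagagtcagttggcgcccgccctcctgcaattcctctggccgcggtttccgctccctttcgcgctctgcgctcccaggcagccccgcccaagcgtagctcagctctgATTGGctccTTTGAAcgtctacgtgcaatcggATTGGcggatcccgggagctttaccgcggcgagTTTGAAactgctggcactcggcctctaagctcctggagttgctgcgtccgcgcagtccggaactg
Chaf1b: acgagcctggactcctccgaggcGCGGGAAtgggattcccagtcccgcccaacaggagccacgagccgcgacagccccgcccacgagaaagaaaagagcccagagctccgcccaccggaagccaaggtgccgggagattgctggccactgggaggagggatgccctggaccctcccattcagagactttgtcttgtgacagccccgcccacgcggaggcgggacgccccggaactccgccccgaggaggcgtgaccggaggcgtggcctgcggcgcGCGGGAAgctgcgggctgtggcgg
The matches to CCAAT in Ccnb2 begin at -87, -54 and -21 from the start of the gene, and those to TTTGAA at -167 and 5. These shares are descriptions of sequence and were not tied to binding in these samples.

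Genes of glycolysis and of the hypoxia response rose in part. Of 36, 16 rose and 2 fell, with a median of 0.62, and between 9 (without day 0 replicate 1) and 12 rose with 1 knockout array left out. Car9, which encodes the carbonic anhydrase known as a marker of low oxygen, read 5.20 and 6.00 at day 0 and 8.90 and 9.21 at day 6, a rise of 3.45 ± 0.28 or 10.9-fold (adjusted p = 0.000758). Egln3, an oxygen-sensing prolyl hydroxylase gene that is itself a target of hypoxia-inducible factors, read 9.84 and 9.80 at day 0 and 12.34 and 12.20 at day 6, a rise of 2.45 ± 0.17 (adjusted p = 0.000524). The days did not overlap in either gene, which their choice by small p made likely. The glucose transporter gene Slc2a1, already at 10.996 and 11.27, rose by 1.40, and the angiogenic factor gene Vegfa rose by 1.54. The core letters of the hypoxia response element, ACGTG, stood on either strand in 26 of 44 promoters of this list (59.1%) against 19.6% of all promoters. The window of Egln3 (chr12:54203825-54204124, minus strand, GRCm38.p6, RefSeq), printed for the gene with the smallest p of the list, has them at -229 from the start, in capitals.
Egln3: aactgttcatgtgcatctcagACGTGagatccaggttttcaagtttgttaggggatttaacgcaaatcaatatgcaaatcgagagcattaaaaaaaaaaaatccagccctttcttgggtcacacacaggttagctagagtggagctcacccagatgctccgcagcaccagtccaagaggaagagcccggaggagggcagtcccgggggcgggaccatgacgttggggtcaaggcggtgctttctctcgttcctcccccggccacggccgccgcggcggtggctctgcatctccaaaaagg
ACGTG is short and frequent, and it also stood in 10 of 20 circadian clock promoters (50%) and in 9 of 23 promoters of cell cycle regulators (39.1%). Its presence was not tied to binding here.

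**Figure D2:**
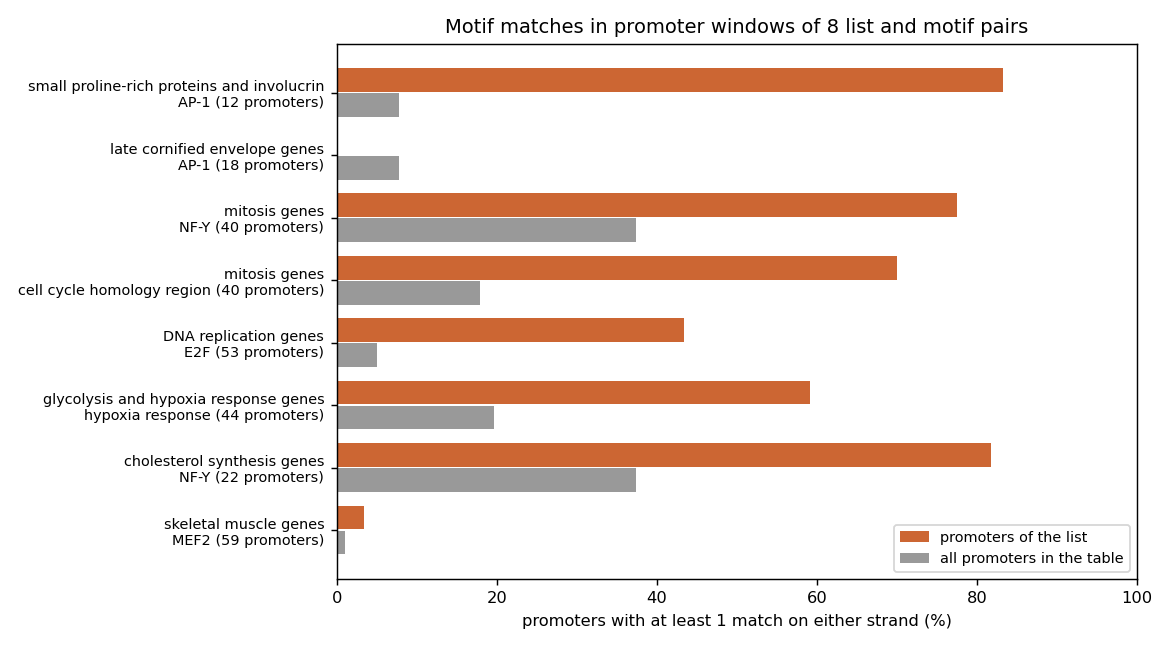
Share of promoter windows (percent) with at least 1 match to a motif on either strand, for 8 pairs of a gene list and a motif (orange) and for all 32851 promoter windows of the table (grey); the number of promoters of each list is in brackets. AP-1 letters stand in 83.3% of Sprr and involucrin promoters and in none of the late cornified envelope promoters, against 7.81% of all.

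Few genes of the kinase cascade that IQGAP1 scaffolds passed the test. Of 28 genes of the IQGAP family and the Ras-ERK cascade, 2 rose and 2 fell, with a median of 0.033. Shc2, an adaptor gene, read 7.09 and 7.61 at day 0 and 5.59 and 5.43 at day 6, a change of -1.84 ± 0.21 (adjusted p = 0.00232). Map2k1, which encodes the ERK kinase MEK1, read 9.32 and 9.68 at day 0 and 10.14 and 10.21 at day 6, a rise of 0.68 ± 0.18 (adjusted p = 0.0449), a call lost when any 1 knockout array was left out, as was that of Rasa1. These shares, 7.14% in each direction, are near the 7.24% and 9.07% of all genes.

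Genes listed as readouts of ERK activity moved in both directions. Among 20 genes listed as feedback inhibitors, 2 rose and 3 fell (median -0.08): the phosphatase gene Dusp14 rose by 1.53, Spred3 rose by 2.74 and Dusp8 fell by 1.73. The phosphatases of Dusp14 and Dusp8 are not specific to ERK, so these changes are not readouts of ERK alone. Dusp6, the phosphatase of ERK in the cytoplasm, was chosen for mention after its values were seen; it read 10.37 and 10.48 at day 0 and 10.82 and 11.001 at day 6 and did not pass. Of 23 other ERK output genes 8 rose and 2 fell (median 0.19), with 4 that rose without day 0 replicate 1, day 6 replicate 1 or day 6 replicate 2. Hmga2, an architectural chromatin factor gene, read 6.96 and 7.27 at day 0 and 10.21 and 10.37 at day 6, a rise of 3.18 ± 0.18 or 9.04-fold (adjusted p = 0.000343), and the ETS factor gene Etv4 rose by 2.38. Fosl1, which encodes Fra-1, read 10.70 and 10.70 at day 0 and 9.71 and 9.85 at day 6, a change of -0.92 ± 0.16 (adjusted p = 0.0112) that was lost without day 0 replicate 1, day 0 replicate 2 or day 6 replicate 1.

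Immediate-early genes fell more often than they rose in the knockout, the leading ones from high day 0 values. Of 33 genes that cells switch on within minutes of a stimulus, 12 fell and 2 rose, with a median of -0.44, which was -0.29 without day 0 replicate 1. With 1 knockout array left out none rose, and between 8 (without day 0 replicate 1 or day 6 replicate 1) and 11 fell. Fosb, an AP-1 subunit gene, read 11.41 and 10.36 at day 0 and 6.32 and 6.55 at day 6, a change of -4.45 ± 0.33 or 21.9-fold downward (adjusted p = 0.000547). Atf3, a stress factor gene, read 11.15 and 11.83 at day 0 and 8.34 and 8.31 at day 6, a change of -3.16 ± 0.32 (adjusted p = 0.00155), and the nuclear receptor gene Nr4a1 read 11.39 and 10.43 at day 0 and 7.33 and 7.95 at day 6, a change of -3.27 ± 0.35 (adjusted p = 0.00179). In each of them both day 0 arrays were high and both day 6 arrays were well below them. Nr4a3 fell by 3.65, Nr4a2 fell by 2.58 and the matricellular factor gene Ccn1 fell by 2.47, all on the log2 scale. Fos and Egr1, chosen for mention after their values were seen, did not pass (adjusted p = 0.351 and 0.367, limma). Of 19 genes listed under the EGF family and its receptors, 3 rose and 1 fell (median -0.05). Egf itself fell by 1.52. The rises were those of the ligand genes Hbegf (1.47) and Tgfa (1.26) and of the protease gene Adam10 (0.91). Each of these 3 calls was lost without day 0 replicate 1 or day 6 replicate 1.

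Epithelial cytokine genes moved in both directions. Of 34 genes of the interleukin-1 family and related cytokines, 12 rose and 7 fell (median 0.44, and 0.20 without day 6 replicate 2), with 7 that rose without day 0 replicate 1, day 6 replicate 1 or day 6 replicate 2, and 4 that fell without day 6 replicate 1 or day 6 replicate 2. Tslp, the keratinocyte cytokine gene of allergic inflammation, read 4.82 and 5.63 at day 0 and 11.42 and 10.97 at day 6, a rise of 5.97 ± 0.56 or 62.6-fold (adjusted p = 0.0012). Il1f9, which encodes interleukin-36 gamma, rose by 1.49 from 10.18 and 10.37, and Il1a rose by 2.39. Those that fell include Csf1, the macrophage growth factor gene, which read 10.29 and 10.19 at day 0 and 7.51 and 7.98 at day 6 (change -2.50 ± 0.25, adjusted p = 0.0016), and the receptor genes Il20ra, Il7r and Il1r2, with changes of -2.92, -2.22 and -1.86.

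Few neutrophil genes passed the test besides S100a8 and S100a9. Of 19 neutrophil genes 3 rose and none fell (median 0.36, running from 0.12 without day 6 replicate 2 and 0.14 without day 0 replicate 1 to 0.82 without day 0 replicate 2 and 0.89 without day 6 replicate 1), and those 3 were S100a8, S100a9 and Mmp9, all of which keratinocytes can also make. Ly6g, a surface marker of mouse neutrophils, read 4.31 and 4.82 at day 0 and 4.11 and 4.95 at day 6. Elane, their elastase gene, read 4.60 and 4.74 at day 0 and 5.11 and 4.96 at day 6. Neither passed, and both stayed near the low end of the scale. Among 9 neutrophil-recruiting chemokines and receptors 1 rose: Cxcl3 read 4.91 and 5.59 at day 0 and 8.72 and 7.58 at day 6, a rise of 2.90 ± 0.47 (adjusted p = 0.00789). Cxcl2 read 7.23 and 6.78 at day 0 and 8.41 and 10.32 at day 6, with day 6 replicate 2 well above replicate 1, and did not pass (adjusted p = 0.1). The list mean for neutrophil genes was 5.92 and 6.65 at day 0 and 6.85 and 7.49 at day 6.

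Genes of Langerhans and dendritic cells, T cells and macrophages were more often lower than higher at day 6, unlike those of B cells, mast cells and eosinophils. Of 27 genes of Langerhans and dendritic cells 7 fell and 1 rose (median -0.36): Cd207, which encodes langerin, the defining lectin of Langerhans cells, read 7.67 and 8.13 at day 0 and 4.84 and 4.89 at day 6, a change of -3.03 ± 0.20 or 8.19-fold downward (adjusted p = 0.000465). Its day 6 arrays were nearly equal and far below both day 0 arrays. Without day 0 replicate 1 the list had 4 genes that fell. Of 33 T cell genes 7 fell and 1 rose (median -0.10, running from -0.24 without day 6 replicate 2 and -0.20 without day 0 replicate 2 to -0.044 without day 0 replicate 1): the CD3 chain gene Cd3g fell by 1.83 and Cd2 fell by 1.38, while Cd3e read 6.67 and 7.38 at day 0 and 6.07 and 6.34 at day 6 and did not pass. Of 35 macrophage genes 4 fell and 1 rose (median -0.53), and none fell without day 0 replicate 2 or day 6 replicate 1. The macrophage median was -0.024 without day 6 replicate 1 and -0.89 without day 6 replicate 2. The share of macrophage genes that fell, 11.4%, was near the 9.07% of all genes. The macrophage marker Adgre1 read 8.63 and 8.69 at day 0 and 7.34 and 8.48 at day 6, and the receptor gene Csf1r read 9.89 and 10.09 at day 0 and 8.64 and 9.97 at day 6. In both, day 6 replicate 2 was close to the day 0 arrays and replicate 1 was lower. The B cell marker Cd79a, a chain of their antigen receptor, stayed at the level of absent genes (3.65 and 3.65 at day 0 and 3.53 and 3.58 at day 6). Only 1 of 11 B cell genes was called, as higher at day 6 (list median 0.12). Of 22 mast cell and eosinophil genes 3 rose and 2 fell (median 0.045).

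Chemokines outside the neutrophil group, interferon-stimulated genes and complement genes fell more often than they rose. Of 27 other chemokine genes 5 fell and 1 rose (median -0.31, with -0.16 without day 6 replicate 1 and -0.53 without day 6 replicate 2); the monocyte attractant gene Ccl7 read 10.06 and 10.35 at day 0 and 5.88 and 7.11 at day 6, a change of -3.71 ± 0.39 (adjusted p = 0.0017), and Ccl24, an eosinophil attractant gene, fell by 3.04. Without day 0 replicate 1, 2 of the chemokine genes fell. Of 40 interferon-stimulated genes 14 fell and none rose, with a median of -1.34, and both day 6 arrays lay below both day 0 arrays in 31, against 25.2% of all genes. Iigp1, an interferon-induced GTPase gene, read 7.91 and 7.51 at day 0 and 4.41 and 5.03 at day 6, a change of -2.99 ± 0.25 or 7.94-fold downward (adjusted p = 0.000885). Ifit3, by contrast, read 8.49 and 10.23 at day 0 and 5.40 and 6.75 at day 6, with day 0 replicate 2 well above replicate 1; its change of -3.29 ± 0.62 was lost without day 6 replicate 1. The list mean was 7.29 and 8.05 at day 0 and 5.96 and 6.76 at day 6, with replicate 2 higher on both days, and 3 genes fell without day 6 replicate 1. Its median was -0.80 without day 0 replicate 2 and -0.86 without day 6 replicate 1. Of 19 complement genes 7 fell and none rose (median -0.86, and -1.51 without day 6 replicate 2), and 4 fell without day 0 replicate 1, day 0 replicate 2 or day 6 replicate 1. C7, a terminal complement component gene, read 11.06 and 11.10 at day 0 and 5.54 and 5.57 at day 6, a change of -5.53 ± 0.30 or 46-fold downward (adjusted p = 0.000322), with the replicates of each day nearly equal.

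Fibroblast and matrix genes fell far more often than they rose. Of 34 fibroblast genes 20 fell and 1 rose, with a median of -1.11, and between 10 (without day 6 replicate 1) and 18 fell with 1 knockout array left out. Sfrp4, a secreted Wnt antagonist gene, read 9.18 and 9.24 at day 0 and 4.59 and 4.95 at day 6, a change of -4.44 ± 0.23 or 21.8-fold downward (adjusted p = 0.000308). Igfbp5 read 11.33 and 10.92 at day 0 and 7.51 and 7.65 at day 6, a change of -3.55 ± 0.26 (adjusted p = 0.000568), and the growth factor gene Igf1 fell by 1.83. Of 39 collagen chains and matrix genes 15 fell and 1 rose (median -0.99), but 5 fell without day 6 replicate 1. Dpt, which encodes dermatopontin, read 12.26 and 12.24 at day 0 and 9.89 and 10.14 at day 6, a change of -2.23 ± 0.22 (adjusted p = 0.00152), and Col14a1 read 9.85 and 9.94 at day 0 and 6.27 and 7.50 at day 6, a change of -3.01 ± 0.38 (adjusted p = 0.00324). The main collagen genes spread more at day 6: Col1a1 read 12.86 and 12.88 at day 0 and 10.52 and 11.71 at day 6 and did not pass (adjusted p = 0.0512), and Col1a2 fell by 2.13 (adjusted p = 0.0229), a call lost without day 0 replicate 1, day 0 replicate 2 or day 6 replicate 1. In both genes day 6 replicate 2 stood above replicate 1.

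Matrix proteases moved in both directions. Of 30 proteases and inhibitors 5 rose and 9 fell (median -0.09, with -0.37 without day 0 replicate 1 and 0.10 without day 0 replicate 2). The interstitial collagenase gene and its near copy rose: Mmp1a read 4.06 and 4.19 at day 0 and 8.91 and 8.12 at day 6, a change of 4.39 ± 0.34 (adjusted p = 0.000641), and Mmp1b read 3.41 and 3.95 at day 0 and 7.12 and 7.26 at day 6, both from the level of absent genes. Mmp9, a gelatinase gene, read 7.05 and 7.69 at day 0 and 11.09 and 11.02 at day 6, a rise of 3.68 ± 0.43 or 12.8-fold (adjusted p = 0.00251). Mmp19 read 10.86 and 11.32 at day 0 and 8.11 and 8.28 at day 6, a change of -2.90 ± 0.22 (adjusted p = 0.000568), and the aggrecanase genes Adamts5 and Adamts1 changed by -2.08 and -1.25.

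Fat cell genes fell further. Of 30 adipocyte genes 18 fell and none rose, with a median of -1.60, and between 9 (without day 0 replicate 1 or day 6 replicate 1) and 18 fell with 1 knockout array left out. Lep read 10.71 and 10.52 at day 0 and 4.18 and 4.48 at day 6, a change of -6.29 ± 0.17 (adjusted p = 4.27e-05), and at day 6 it reached the level of absent genes. Adipoq, which encodes adiponectin, read 11.25 and 10.33 at day 0 and 5.03 and 6.66 at day 6, a change of -4.94 ± 0.54 or 30.8-fold downward (adjusted p = 0.00201). Plin1, which encodes the coat protein of the fat droplet, read 10.61 and 9.67 at day 0 and 6.09 and 6.54 at day 6, a change of -3.83 ± 0.35 (adjusted p = 0.00113). In each, day 0 replicate 1 was the highest of the 4 knockout arrays and day 6 replicate 1 the lowest.

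Skeletal muscle genes made up the largest list that fell. Of 68, 49 fell and none rose, with a median of -2.08, and between 39 (without day 0 replicate 1 or day 6 replicate 1) and 43 fell with 1 knockout array left out. Mstn, which encodes the muscle growth inhibitor myostatin, read 11.17 and 10.25 at day 0 and 6.00 and 5.87 at day 6, a change of -4.77 ± 0.29 or 27.3-fold downward (adjusted p = 0.000445). Pvalb, the calcium buffer gene of fast fibres, read 12.46 and 12.10 at day 0 and 6.91 and 7.63 at day 6, a change of -5.01 ± 0.34 (adjusted p = 0.000516), and Actn3, a sarcomere gene of fast fibres, read 12.54 and 12.02 at day 0 and 8.63 and 8.62 at day 6, a change of -3.66 ± 0.26 (adjusted p = 0.000518). No day 6 array of these genes overlapped a day 0 array, which choosing genes by size of change or by p made likely. The mean level of the list was 10.2 and 10.001 at day 0 and 7.96 and 8.12 at day 6. Fat, muscle and fibroblast means thus moved together on the same 4 arrays, and how much of each gene's change goes with the amount of these tissues in a sample was not tested.

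Vessel, smooth muscle and nerve genes also fell more often than they rose. Of 31 endothelial and lymphatic genes 7 fell and 1 rose (median -0.43, and -0.77 without day 6 replicate 2): the venule receptor gene Ackr1 fell by 2.21 and the E-selectin gene Sele fell by 1.75, while Pecam1 read 9.78 and 9.81 at day 0 and 8.77 and 9.41 at day 6 and did not pass. Of 15 smooth muscle and pericyte genes 6 fell and 1 rose (median -1.13); Synpo2 fell by 2.31, and Des, which encodes desmin and is shared with skeletal muscle, fell by 1.35. Of 19 Schwann cell and myelin genes 10 fell and 1 rose (median -0.68). Drp2, a dystroglycan partner of myelinating Schwann cells, read 8.24 and 7.88 at day 0 and 5.43 and 5.42 at day 6, a change of -2.64 ± 0.19 or 6.22-fold downward (adjusted p = 0.000516), and the myelin gene Mbp fell by 1.40. Mal, a myelin gene also made by epithelia, was the exception and rose by 1.89. Without day 0 replicate 1 or day 6 replicate 1, 3 endothelial genes fell, and without day 6 replicate 1, 2 smooth muscle genes and 5 Schwann cell genes fell.

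**Figure D3:**
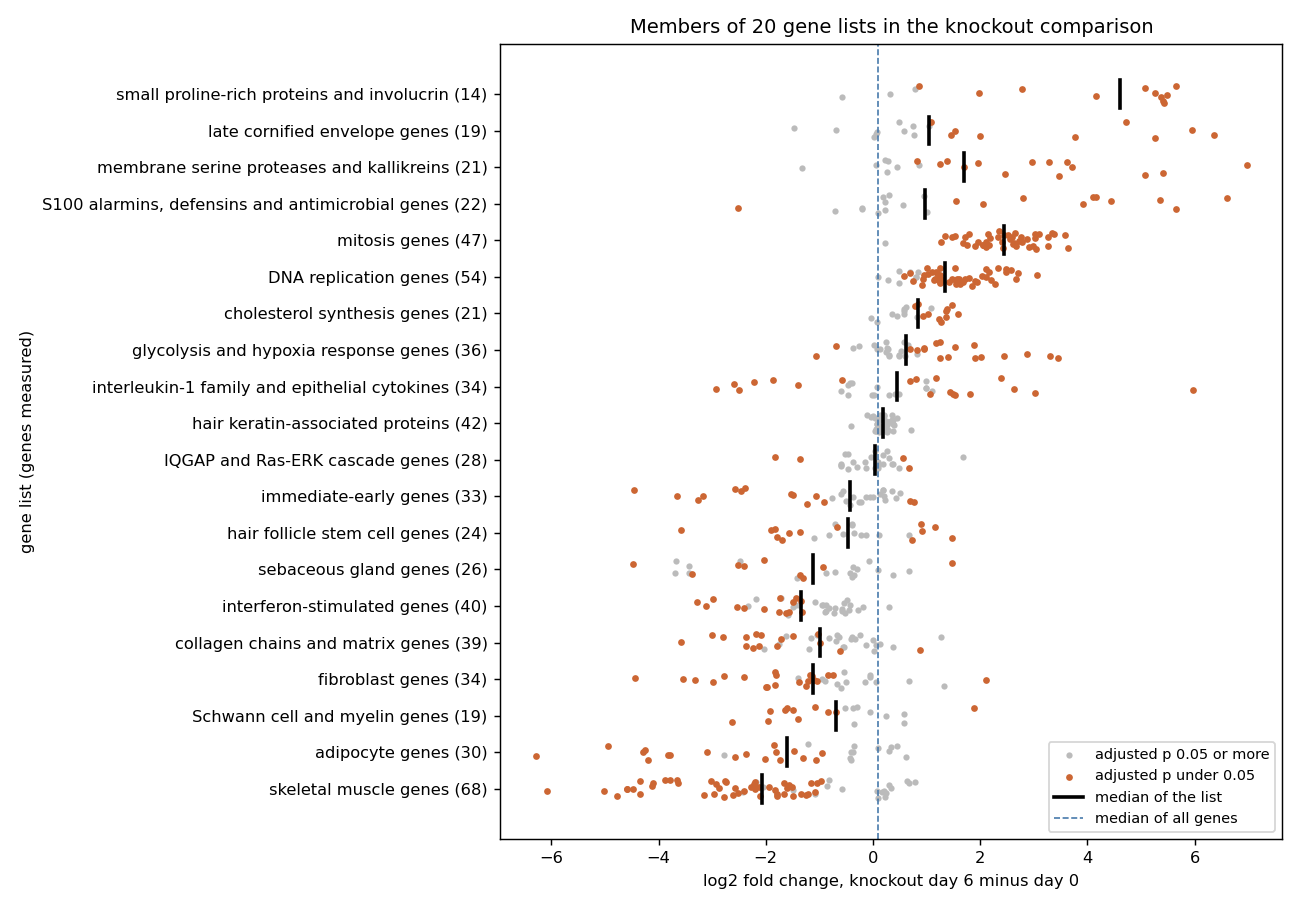
Log2 fold change (knockout day 6 minus day 0) of every measured member of 20 gene lists, with the number of measured genes in brackets; orange points passed the test at an adjusted p under 0.05, grey points did not, black bars are list medians and the dashed line is the median of all genes, 0.095. The medians run from 4.62 for the small proline-rich proteins to -2.08 for skeletal muscle genes.

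Hair follicle lists divided by compartment. Genes of the hair shaft and its associated proteins read low in the knockout at both days: of 42 hair keratin-associated protein genes none was called by limma (1 was higher and none lower at an unadjusted p under 0.05), and their mean level was 4.63 and 4.53 at day 0 and 4.80 and 4.75 at day 6, close to the level of absent genes. None of these 42 was called with any 1 knockout array left out either. Of 12 hair shaft keratins 1 rose, Krt84, from 4.40 and 4.93 to 5.83 and 5.97, a call lost without day 0 replicate 1, day 6 replicate 1 or day 6 replicate 2. Hair shaft proteins are made only in growing follicles. Of 24 genes of follicle stem cells 8 fell and 5 rose (median -0.47), with 4 that fell without day 0 replicate 1 or day 6 replicate 1 and 1 that rose without day 0 replicate 2 or day 6 replicate 2. Nfatc1, which holds these cells quiescent, read 9.83 and 9.77 at day 0 and 8.06 and 7.89 at day 6, a change of -1.83 ± 0.16 (adjusted p = 0.000978), and Cd34, their surface marker in the mouse, fell by 1.36. Of 33 genes of hair matrix and dermal papilla 9 fell and 6 rose (median 0.25, and 0.091 to 0.18 with 1 knockout array left out): the ligand genes Fgf7 and Bmp4 changed by -2.58 and -2.47, and Wnt5a rose by 3.13. Without day 6 replicate 1, 5 of that list fell, and without day 0 replicate 1, 3 rose.

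Sebaceous gland genes fell more often than they rose, with the day 6 replicates apart. Of 26, 8 fell and 1 rose (median -1.12, and -0.65 without day 6 replicate 1). Mc5r, the melanocortin receptor gene of the gland, read 9.29 and 9.15 at day 0 and 4.97 and 6.74 at day 6, a change of -3.37 ± 0.53 (adjusted p = 0.00716), and Scd3 read 11.32 and 11.29 at day 0 and 6.02 and 7.64 at day 6, a change of -4.48 ± 0.79 (adjusted p = 0.0109). Day 6 replicate 1 was the lowest of the 4 knockout arrays in both. Over the list its mean was 7.60, against 8.93 on day 6 replicate 2 and 9.71 and 9.70 at day 0. Without day 6 replicate 1, 2 of the genes fell, and the Scd3 call was lost. Fabp5, a lipid carrier gene that the epidermis also makes, rose by 1.48. Of 16 melanocyte genes 1 rose and 2 fell (median 0.22); the pigment enzyme gene Tyr lay near the level of absent genes, at 4.20 and 4.05 at day 0 and 4.46 and 4.49 at day 6.

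Several of the largest changes of the knockout had a wild-type change of like size. With 1 wild-type day 0 array, limma called 1418 genes (7.11%; 3.51% higher and 3.61% lower at day 6) between wild-type day 6 and day 0, of which 682 were also called in the knockout in the same direction and 40 in the opposite direction. Tmprss11b changed by 6.94 in the wild type, Sprr2d by 6.32, Krt77 by -5.80 and Serpina3b by -5.95, next to 6.97, 5.66, -6.58 and -5.92 in the knockout. The difference between the genotypes in the day change was called for 619 genes (3.1%): 363 of the genes that changed in the knockout and 256 that were not called there. That count was 143 without knockout day 6 replicate 1 and 1038 without wild-type day 6 replicate 1, and lay between these with any other array of a pair left out. Also, the wild-type day 0 side rests on a single array that carries Xist signal, unlike all knockout arrays, so that sex, mouse and genotype cannot be told apart there.

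Genes of hair growth were prominent in that difference. Krt28, an inner root sheath keratin gene, read 3.91 and 4.05 at day 0 and 4.06 and 3.73 at day 6 in the knockout and 11.35 on the wild-type day 0 array, with 3.64 and 3.58 on the wild-type day 6 arrays, a difference of 7.65 ± 0.28 (adjusted p = 0.000256). The keratin-associated protein genes averaged 10.5 on the wild-type day 0 array, and 33 of 42 of them differed between the genotypes in their day change, as did all 12 hair shaft keratins (mean 10.18 on that array, against 4.85 and 4.82 on the knockout day 0 arrays) and 11 of 16 melanocyte genes. In all of them the wild-type day 0 array was the highest of the 7. Crnn, which encodes cornulin, rose in the knockout by 2.58, from 4.64 and 4.34 to 7.35 and 6.79, and read 12.06 on the wild-type day 0 array and 6.03 and 6.17 at wild-type day 6, a difference of 8.54 ± 0.36 (adjusted p = 0.000351). Psors1c2 rose in the knockout from 5.52 and 5.67 to 9.57 and 9.55, and read 11.20 on the wild-type day 0 array, a difference of 6.01 ± 0.29 (adjusted p = 0.000435).

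Beyond hair genes, division genes and a few dermal and muscle genes differed. For 13 of 47 mitosis genes and 7 of 54 DNA replication genes the knockout rise exceeded the wild-type change by the test of the difference. Bub1 changed by -0.06 in the wild type against 3.64 in the knockout, a difference of 3.70 ± 0.42 (adjusted p = 0.00928), and Mad2l1 differed by 3.15 ± 0.27 (adjusted p = 0.00294). The wild-type day 0 array already read 8.75 for Bub1, against 5.01 and 4.98 on the knockout day 0 arrays, and its day 6 arrays read 8.29 and 9.10, against 8.55 and 8.71. Levels at day 6 thus overlapped between the genotypes for the mitosis list, whose means were 8.43 and 8.59 in the knockout and 7.98 and 8.83 in the wild type. C7 was low on every wild-type array (5.39 at day 0 and 4.80 and 5.77 at day 6), a difference of -5.42 ± 0.48 in its day change (adjusted p = 0.00313). The muscle gene Xirp1 read 6.84 on the wild-type day 0 array and 6.31 and 6.88 at wild-type day 6, against 11.54 and 12.26 at knockout day 0. Its day change differed by -4.24 ± 0.47. Hair and mitosis lists were both higher on the wild-type day 0 array than on the knockout day 0 arrays, and the part of the day 0 arrays' hair and muscle content in these differences was not tested.

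**Figure D4:**
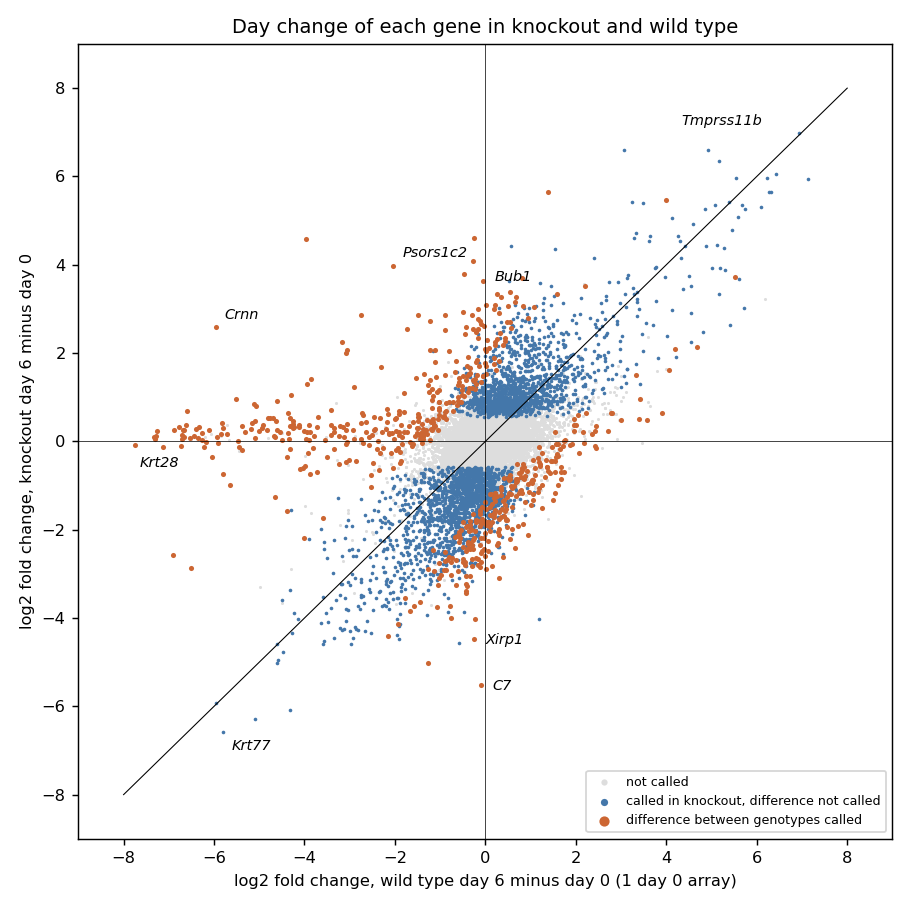
Log2 fold change of each gene between day 6 and day 0 in the wild type (horizontal axis) and in the knockout (vertical axis); grey, not called, blue, called in the knockout, orange, difference between the genotypes called, diagonal, equal change. Tmprss11b and Krt77 lie near the diagonal, Krt28 and Crnn far to the left, and C7 and Xirp1 below it with a wild-type change near 0.

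**Figure D5:**
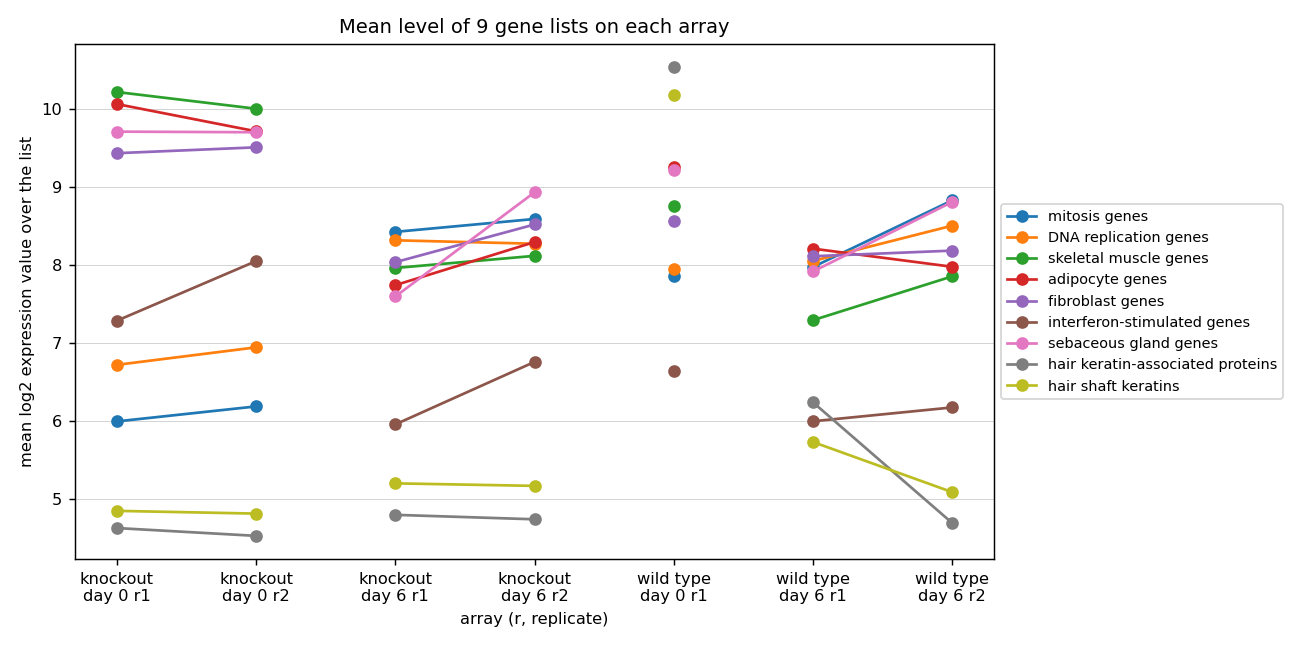
Mean log2 expression value of 9 gene lists on each of the 7 arrays; lines join replicates of one group and carry no order. Hair keratin-associated proteins average 10.5 on the wild-type day 0 array and between 4.53 and 4.80 on the knockout arrays, and the mitosis list averages 6.00 and 6.19 on the knockout day 0 arrays, below every other array.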

How the data were processed

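The authors deposited log2 expression values for 34760 probe sets on 7 arrays, for which the submitters' processing notes name RMA and R 2.11.1. The genome build behind the probe design was not given in the sources used here. RNA was isolated from macerated tissue, amplified and biotin-labelled, per the labels' protocols. The values were used as deposited. GEO's platform annotation named 1 gene symbol for 21640 probe sets, several for 1321 and none for 11799. Genes with several probe sets (954) took the probe set whose mean across all arrays was highest. This left 19937 genes, of which 19855 matched RefSeq. Intensities and detection calls were not used here, so the precision is limited by the number of arrays.

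One limma model (version 3.58.1 in R 4.3.3) with 4 group means was fitted to all 7 arrays, with 3 residual degrees of freedom and a prior of 3.80. Contrasts were knockout day 6 minus day 0, the same in the wild type, and their difference, each adjusted by Benjamini-Hochberg over all genes at a threshold of 0.05. Lists and motif searches used Python 3.11.15. Over promoters of the genes tested alone, AP-1 letters stood in 6.9%, CCAAT in 37.4% and TTTGAA in 14.8%. E2F letters stood in 7.02% of these and ACGTG in 21.6%. There were 52 gene lists with 1258 distinct measured genes. The genes, lists and promoters were chosen with earlier results of these data known, so list counts are descriptions. Named genes are the IQGAP family, the 20 largest called rises and the 20 largest called falls with non-overlapping arrays, up to 8 members of each list by smallest p with its defining members, and the 10 smallest p for the difference. For genes chosen by size or p, days that do not overlap follow largely from that choice and are no further support. Alternatives were a replicate block, a term for Xist signal, a trended robust prior, renewed quantile normalization, a filter on genes with a mean under 5, other probe set rules, only the knockout arrays, a 2-fold threshold and leaving out each array. Samples sharing a replicate number had deviations that correlated at 0.0862, 0.0365 and 0.227, and no label says that the number pairs them.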

Additional observations from a re-analysis of the deposited data

Results flagged for a closer look

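Groups held 1 or 2 arrays, which is too few to test whether a sample stands apart from its group. The results here are genes named in the text whose day change differed between knockout and wild type by limma (adjusted p under 0.05 over all genes; values are the knockout log2 change minus the wild-type log2 change). The wild-type side rests on 1 day 0 array, and chance gives some calls at this threshold.

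Hair and pigment genes, with Calhm4 and Lyg2, had large positive differences. Krt28 differed by 7.65 (adjusted p = 0.000256), Krt26 by 7.35, Krt39 by 5.25 and Krt84 by 4.15. Krtap26-1 differed by 6.30, Krtap14 by 7.13, Krtap31-1 by 5.48 and Tyr by 5.73. Calhm4 differed by 7.42 and Lyg2 by 6.24. On all 4 knockout arrays Krt28, Krt26, Krtap26-1, Krtap14 and Krtap31-1 stayed close to the level of absent genes.

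Several genes of the epidermis also had positive differences. Crnn differed by 8.54 (adjusted p = 0.000351), Psors1c2 by 6.01, Tgm3 by 4.85 and S100a7a by 4.37. Gjb6 differed by 4.26, Mt4 by 3.64, Tmprss11e by 2.90 and Sprr2f by 1.48. In Crnn, Psors1c2 and Gjb6 the wild-type day 0 array read 12.06, 11.20 and 9.85, above both knockout day 0 arrays. At day 6 Gjb6 read 11.25 and 11.34 in the knockout and 11.14 and 11.33 in the wild type. Mt4 fell less in the knockout than in the wild type, where it changed by -6.51. The epidermal serpin gene Serpina12 differed the other way, by -3.01, and the phosphatase gene Dusp14 differed by 1.89.

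Division genes differed upward. Bub1 differed by 3.70 (adjusted p = 0.00928), Mad2l1 by 3.15, Ccnb2 by 3.08, Cdk1 by 2.93, Ccna2 by 2.88, Aurkb by 2.82, Top2a by 2.76 (on the probe set used) and Ccne1 by 2.57. Tk1 differed by 2.15, Chaf1b by 1.90, Rbl1 by 1.80 and Rfc5 by 1.39.

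Negative differences were called for named genes of several lists. C7 differed by -5.42 (adjusted p = 0.00313), Xirp1 by -4.24, Cyp2e1 by -3.75 and Mmp19 by -2.91. Cadm3 differed by -2.27, Adamts5 by -2.06, Adamts1 by -1.51, Nfatc1 by -1.98 and Drp2 by -1.90. Fosl1 differed by -1.93, Shc2 by -1.89, Il1f9 by -1.83 and Bhlhe41 by -1.72.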

How the results depend on the processing

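With 1 knockout array left out the 3251 calls numbered 1381 to 2180, with 41.6% to 61.2% of them kept, and over all single omissions, wild-type arrays included, 1381 to 4027. The 1443 rises ranged from 520 to 1915 and the 1808 falls from 789 to 2112. Wild-type calls (1418) ranged from 1040 to 2209, and the 619 differences from 143 to 1038. No called gene changed direction in the settings fitted to 1 value per gene, but most of these settings leave the fold change itself as it was. In 23 called genes a further probe set, compared by means without a test, changed in the opposite direction, in 2 of them by over 0.5. List medians moved by more than the spread between replicates in 72 of 676 combinations of list and setting. Where an omission leaves a lone array, it is assumed to vary like the other groups. With the replicate block 3523 genes were called, with only the knockout arrays 4027, and after renewed quantile normalization 3341, with the median of all genes moved from 0.095 to 0.047. At least 2-fold changes held for 917 of the rises. Some changes that did not pass took both signs: over single omissions Krt28 ranged from -0.2528 to 0.0767, Krtap26-1 from -0.008836 to 0.07342, Krt26 from -0.09807 to 0.1944, Krtap31-1 from -0.06257 to 0.08533, Krt1 from -0.2218 to 0.1398, Ly6g from -0.4503 to 0.3902, Pttg1 from -0.02552 to 0.4752 and Skint3 from -3.104 to 2.217. Renewed quantile normalization gave -0.05564 for Krtap26-1, -0.03425 for Krt26 and -0.0577 for Krtap31-1; the cause was not tested. Groups of 2 arrays limit the precision throughout.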

Other observations

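Circadian clock genes were mostly lower at day 6 in the knockout. Of 17, 6 fell and 1 rose, with a median change of -0.68 against 0.095 for all genes, and 2 fell without day 0 replicate 1, day 6 replicate 1 or day 6 replicate 2. Bhlhe41, a repressor gene of the clock, read 8.10 and 7.99 at day 0 and 5.20 and 5.39 at day 6, a change of -2.76 ± 0.18 (adjusted p = 0.000465, limma). Cry2, a core repressor gene, read 9.15 and 8.96 at day 0 and 7.77 and 7.55 at day 6, a change of -1.39 ± 0.19 (adjusted p = 0.00445). The hour of sampling was not given in the sources used here.

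Genes of polyamine, glutathione and oxidative stress metabolism divided, with 5 that rose and 8 that fell of 28 and a median of 0.066; 4 fell without day 0 replicate 1, day 6 replicate 1 or day 6 replicate 2. Nqo1, a quinone reductase gene, read 6.30 and 6.71 at day 0 and 9.45 and 8.74 at day 6, a rise of 2.59 ± 0.27 (adjusted p = 0.00168), and Gsto1, a glutathione transferase gene, rose by 1.54. Mt4, the metallothionein gene of squamous epithelium, read 8.39 and 9.15 at day 0 and 6.00 and 5.81 at day 6, a change of -2.87 ± 0.26 (adjusted p = 0.00107).

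Replicates differed by more than 2 on the log2 scale in 36 genes at day 0 and in 37 at day 6, while the median gap between replicates was 0.144 and 0.171. Skint3 was apart on both days, reading 3.26 and 8.58 at day 0 and 3.76 and 7.19 at day 6; the Skint genes encode epidermal selecting elements for T cells. Skint10 read 8.30 and 8.31 at day 0 and 3.52 and 3.91 at day 6, a change of -4.59 ± 0.20 (adjusted p = 0.000142).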
